A study of Mus musculus with 6 samples.

Results

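The cytosolic chaperonin CCT, also called TRiC, was followed in primary mouse dermal fibroblasts through its 8 subunit genes Tcp1, Cct2, Cct3, Cct4, Cct5, Cct6a, Cct7 and Cct8. They are 8 of the 18193 genes with a probe set listed under their name alone. All 25 probe sets whose single listed gene is one of these were taken, of 45037 probe sets on the array, and 21 of the 25 were bright enough to be tested. The cells were explanted from the dermis of B6 mice of mixed sex aged 0 to 2 days and used at passage 4. Treated cultures (n = 3) received 5-aza-2'-deoxycytidine at 5 µM during 96 hours, with fresh drug every 24 hours, followed by 24 hours in normal medium. Control cultures (n = 3) had no drug, and 1 expression array was run per culture. The drug, decitabine, enters DNA in place of cytidine and traps the enzymes that methylate it, and the marks thin out over rounds of replication. The question here is whether the genes of one folding machine changed together after that exposure. An array of bulk RNA cannot tell fewer cells of a type from less RNA per cell.

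CCT is built from a pair of stacked rings, each holding every subunit once, and folds proteins inside its cavity as it binds and hydrolyses ATP. Actins and tubulins are its best known clients, beside many WD repeat proteins, and the co-chaperone prefoldin delivers unfolded actin and tubulin to it. Around the ring the subunits follow in the order Tcp1, Cct3, Cct6a, Cct8, Cct7, Cct5, Cct2 and Cct4, which closes back on Tcp1. Because the complex needs all of its subunits, their transcripts are of interest as a set.

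The stretches upstream of 4 of these genes are shown first because the drug acts on methylation at CpG sites, and because they let a subunit with a large change be read beside one with no call. Methylation was not measured. The RefSeq table of promoters (GRCm38.p6) held 9 start sites for 7 of the 8 genes. Each printed sequence runs 5′ to 3′ on the strand of the gene and ends at the base before the start site. It begins at the base after the start of a gene on the opposite strand. Capitals mark CCAAT, or ATTGG where it lies on the other strand. The 4 genes shown are the ones among the 7 that held this motif.
Cct7, chr6:85451303-85451504, plus strand: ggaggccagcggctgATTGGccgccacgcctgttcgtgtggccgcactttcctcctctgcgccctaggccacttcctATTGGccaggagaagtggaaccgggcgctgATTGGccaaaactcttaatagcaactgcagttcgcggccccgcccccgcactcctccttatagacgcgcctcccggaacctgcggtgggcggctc
Cct3, chr3:88297000-88297134, plus strand: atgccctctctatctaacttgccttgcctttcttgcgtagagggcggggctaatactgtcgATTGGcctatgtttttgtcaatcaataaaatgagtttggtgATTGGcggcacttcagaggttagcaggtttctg
Cct6a, chr5:129787254-129787355, plus strand: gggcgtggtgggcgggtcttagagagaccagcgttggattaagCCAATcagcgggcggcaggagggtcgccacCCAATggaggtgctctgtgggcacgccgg
Tcp1, chr17:12916092-12916328, plus strand: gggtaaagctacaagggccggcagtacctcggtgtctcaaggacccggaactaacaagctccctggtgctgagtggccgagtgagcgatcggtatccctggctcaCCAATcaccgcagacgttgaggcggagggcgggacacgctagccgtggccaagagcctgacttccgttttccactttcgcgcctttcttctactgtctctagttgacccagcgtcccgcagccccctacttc

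In the 250 bases upstream of a start, Cct7 held 3 copies of the motif, Cct3 and Cct6a 2 each, and Tcp1 1. Cct2, Cct5 and Cct8 held none. Of the 9 windows 4 had CCAAT, which is 44.4%, against 34.7% of 12620 windows of the tested genes and 33.9% of all 32851. Tcp1, whose transcript was not called below, carries the motif as the called Cct7, Cct3 and Cct6a do. GGGCGG, counted on both strands, was present in 8 of the 9 windows and at least once for each of the 7 genes, against 55.4% of the windows of tested genes. CACGTG and TGACGTCA, searched on both strands, had no match in the 9 windows (8.16% and 2.47% of the windows of tested genes). A heat shock element core was present in 1 Cct2 window as GAANNTTC (5.02% of windows of tested genes) and in 1 Cct5 window as TTCNNGAA (5.93%). The 9 windows held a median of 21 CpG sites, against 15 for tested genes and 6 for all promoters in the table. A match describes letters and not a bound factor.

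Of the 8 subunit genes, 6 rose in treated cultures: Cct7, Cct3, Cct2, Cct8, Cct6a and Cct5. None fell, and Tcp1 and Cct4 were not called. The 6 rises lay between 1.25-fold (Cct5) and 1.77-fold (Cct7). A change was called at an adjusted p under 0.05 in limma, with the Benjamini-Hochberg method applied over all 23388 tested probe sets, and each gene was represented by its brightest tested probe set. By the same rule 19.5% of 12194 genes were called higher and 21.6% lower. In 6 of the 8 subunits every treated array lay above every control array and in 0 every one lay below, against 25.1% and 27.4% of all genes tested. Among the 452 genes at least as bright as the dimmest subunit, 35.4% were called higher. The median log2 change (treated minus control) was 0.53 over the 8 subunits and 0.00 over all genes tested.

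Signals below are MAS5 values after each array was brought to a common trimmed mean, in the order of arrays 1 to 3. Signals of different genes come from different probes and were not set against each other. Log2 changes were computed on log2(signal + 9.66). The sources do not say how the arrays were grouped into hybridisation or scan batches.

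Cct7, the eta subunit, had the largest change. Its signals were 2052, 2027 and 1899 on the control arrays and 3838, 3460.4 and 3319 on the treated arrays. Every treated array lay above every control array, and the log2 change was 0.82 ± 0.081 (SE, n = 3 per group; limma adjusted p = 4.57e-05). Cct3, the gamma subunit, read 2695, 2721 and 2938 in controls and 4495, 4407 and 4824 in treated cultures. The groups did not overlap, with a log2 change of 0.71 ± 0.074 (SE; limma adjusted p = 6.84e-05).

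Cct2, the beta subunit, read 3604, 3900.5 and 3822 in controls and 5652, 5528 and 5419 in treated cultures. The log2 change was 0.55 ± 0.069 (SE; limma adjusted p = 0.00022), with groups that did not overlap and the tightest replicates of the 8 genes. Cct8, the theta subunit, read 2269, 2158 and 2392 in controls and 3406, 3136 and 3326 in treated cultures. All 3 treated arrays were higher, by a log2 change of 0.53 ± 0.075 (SE; limma adjusted p = 0.000441).

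Cct6a, the zeta subunit expressed in most tissues, read 3838, 3687 and 3454 in controls and 6005, 5613 and 4365 in treated cultures. The third treated array was much lower than the other two but still above every control. The log2 change was 0.53 ± 0.12 (SE; limma adjusted p = 0.00535). Cct6a had the widest replicate spread of the 8, a within-group SD of 0.18 on the log2 scale.

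Cct5, the epsilon subunit, had the smallest of the called changes. It read 2931, 2991 and 3108 in controls and 4066, 3597 and 3609.6 in treated cultures, again without overlap. The log2 change was 0.32 ± 0.077 (SE; limma adjusted p = 0.00937). This call ended when arrays were scaled to a common median (0.29, adjusted p = 0.169) or left unscaled (0.24, adjusted p = 0.432). Without scaling Cct6a (0.45, adjusted p = 0.0585) and Cct8 (0.46, adjusted p = 0.0856) also lost their calls in limma, and Cct2, Cct3 and Cct7 kept theirs.

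**Figure D1:**
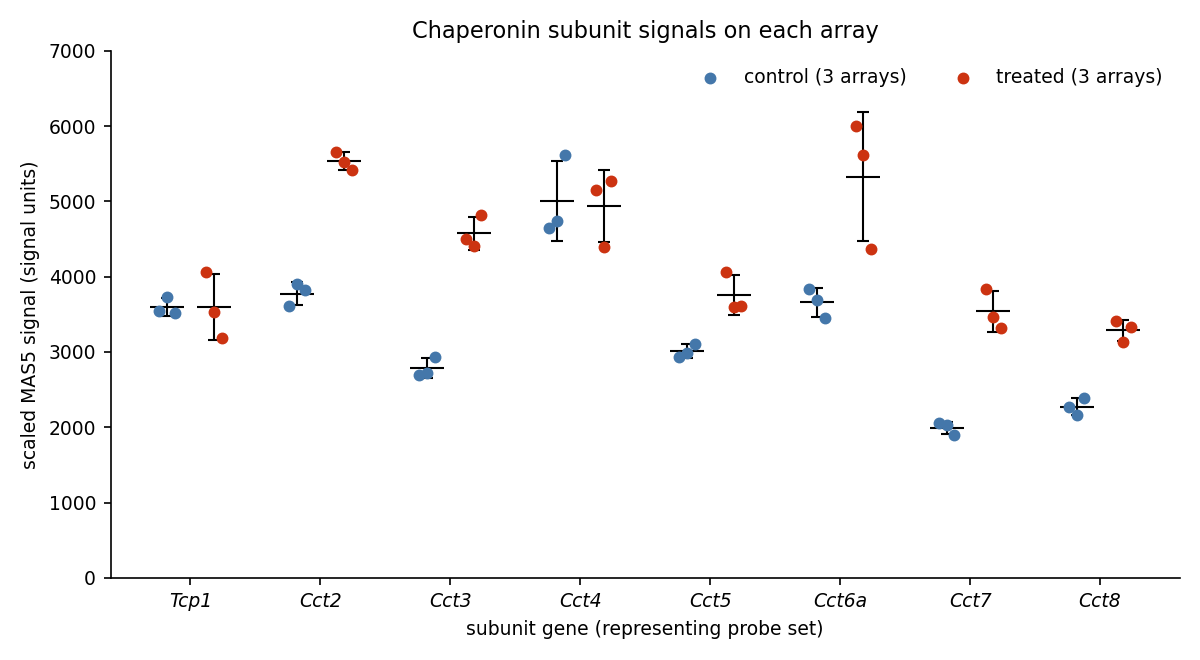
Scaled MAS5 signal (signal units, axis from 0) of the representing probe set of each subunit gene on the 3 control (blue) and 3 treated (red) arrays. Horizontal bars are group means and vertical bars are SD (n = 3). For Cct2, Cct3, Cct5, Cct6a, Cct7 and Cct8 the treated points lie above all control points, and for Tcp1 and Cct4 the groups overlap.

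The other 2 subunits, Tcp1 (alpha) and Cct4 (delta), are neighbours in the ring order given above. Tcp1, the founding member of the family, read 3542, 3736 and 3514 in controls and 4064, 3530.5 and 3191 in treated cultures. The treated arrays lay on both sides of the controls. The log2 change was -0.01 ± 0.094 (SE; limma adjusted p = 0.96), with a 95% confidence interval from -0.22 to 0.20.

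Cct4 read 4649, 4739 and 5610.0 in controls and 5145, 4394 and 5270.1 in treated cultures, and the groups overlapped. The log2 change was -0.02 ± 0.10 (SE; limma adjusted p = 0.91), with a 95% interval from -0.24 to 0.21. A missed threshold does not show that the transcripts stayed the same, but these intervals end below the lower bounds for Cct7 (0.64), Cct3 (0.55), Cct2 (0.39), Cct8 (0.36) and Cct6a (0.27). The interval of Cct5, from 0.14 to 0.49, overlaps them.

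Most subunits were read by more than 1 probe set, which gives a check within each gene. All 14 tested probe sets of the 6 risen genes were called higher, and in all 14 the treated arrays lay above the controls. Over all tested probe sets 18.4% were called higher and 20.3% lower, and in 24.1% the treated arrays all lay above. The 14 are not independent: they read 6 genes on the same arrays, and some share probes. The 5 tested probe sets of Cct3 gave log2 changes from 0.50 to 0.78 although their control means ran from 226.5 to 2785 signal units.

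The 3 of Cct2 gave 0.45 to 0.58, the 2 of Cct6a 0.47 and 0.53, and the 2 of Cct7 0.82 and 0.84. Cct5, Cct8 and Tcp1 had 1 tested probe set each. The probe set of Cct2 with the smallest change was the least certain. Its signals were 3070.5, 2897 and 4142 in controls and 4581, 4173 and 4930.3 in treated cultures, so that the groups all but met (limma adjusted p = 0.0218). Its call was lost in 8 of 15 alternatives. Leaving out control replicate 1 or 2 gave adjusted p = 0.0753 and 0.0811, and leaving out treated replicate 1 or 3 gave 0.0551 and 0.0763. The dimmest tested probe set of Cct3 lost its call without treated replicate 3 (adjusted p = 0.0555) and without scaling (0.267).

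**Figure D2:**
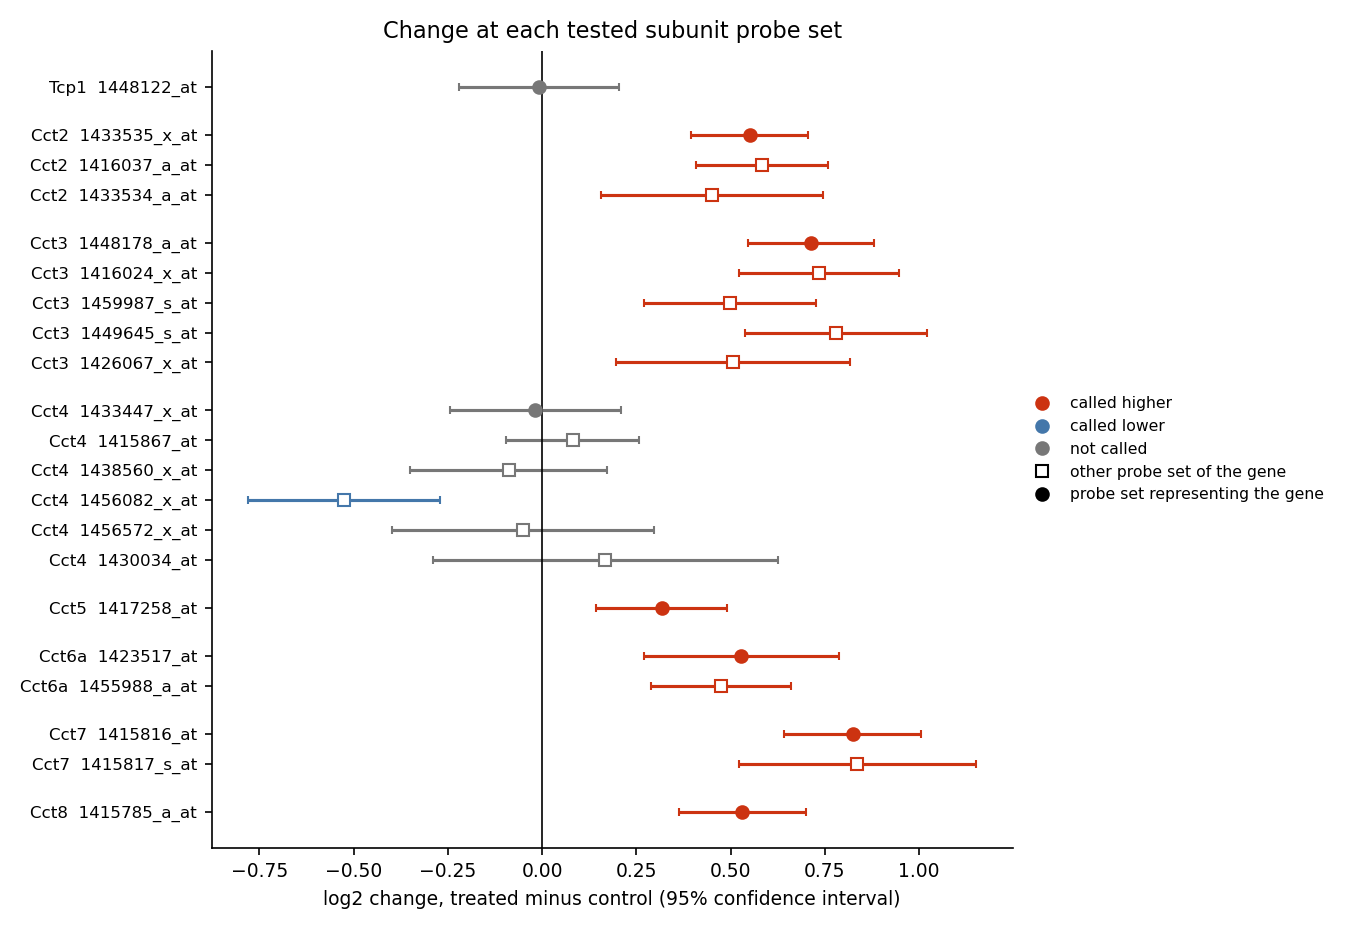
Log2 change (treated minus control) at each of the 21 tested subunit probe sets, with 95% confidence intervals from limma. Filled circles represent the gene and open squares are its other probe sets. Red is called higher, blue called lower and grey not called. The 14 red points belong to 6 genes, and the blue point is 1 of 6 probe sets of Cct4.

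The 6 tested probe sets of Cct4 did not all read alike. The 5 that were not called had log2 changes from -0.09 to 0.17. The 1 called lower read 1018, 1292 and 1126 in controls and 698.1, 858.4 and 819 in treated cultures, a log2 change of -0.53 ± 0.11 (SE; limma adjusted p = 0.005). Its treated arrays all lay below its controls, and its call held in all 15 alternatives run on probe sets. It belongs to a class whose name marks probes that can also match other transcripts, as do 3 of the 5 others, so a signal from elsewhere cannot be told apart. Leaving out such probe sets gave a log2 change of 0.08 for Cct4 (limma adjusted p = 0.458) and kept the 6 genes called.

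Another 4 probe sets were too dim to test, 2 of Cct3 and 1 each of Cct4 and Cct8. The brightest of them, of Cct3, averaged 42.7 ± 10.1 on control arrays (SD, n = 3) and 27.9 ± 4.14 on treated ones, and the other 3 had treated means from 12.1 to 24.9. With no filter on dim probe sets these 4 had limma adjusted p-values from 0.239 to 0.815.

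To see how the subunits changed relative to one another, each was expressed relative to the mean of the 8 on the same array. A factor applied to a whole array all but cancels in this measure, and with no scaling or a common median the group differences were the same to 2 decimals. After quantile normalization, which is not a single factor, they moved a little, to 0.41 for Cct7, 0.11 for Cct2, 0.12 for Cct8 and 0.09 for Cct6a, and kept their direction in all 8 genes. Tcp1 lay 0.20 above the subunit mean in controls and 0.24 below it in treated cultures, a log2 difference of -0.44. The difference for Cct4 was -0.45 and for Cct5 -0.11. Cct7 (0.39), Cct3 (0.28), Cct2 (0.12) and Cct8 (0.10) moved the other way.

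In these 7 genes the treated arrays did not overlap the controls. Each had an exact permutation p = 0.1, two-sided, which is the smallest that 3 arrays against 3 allow, and 0.114 after adjustment over the 8 genes. Cct6a overlapped (0.10, exact permutation p = 0.6). The 8 differences sum to 0 by construction, so a rise of some subunits lowers the rest on this measure.

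**Figure D3:**
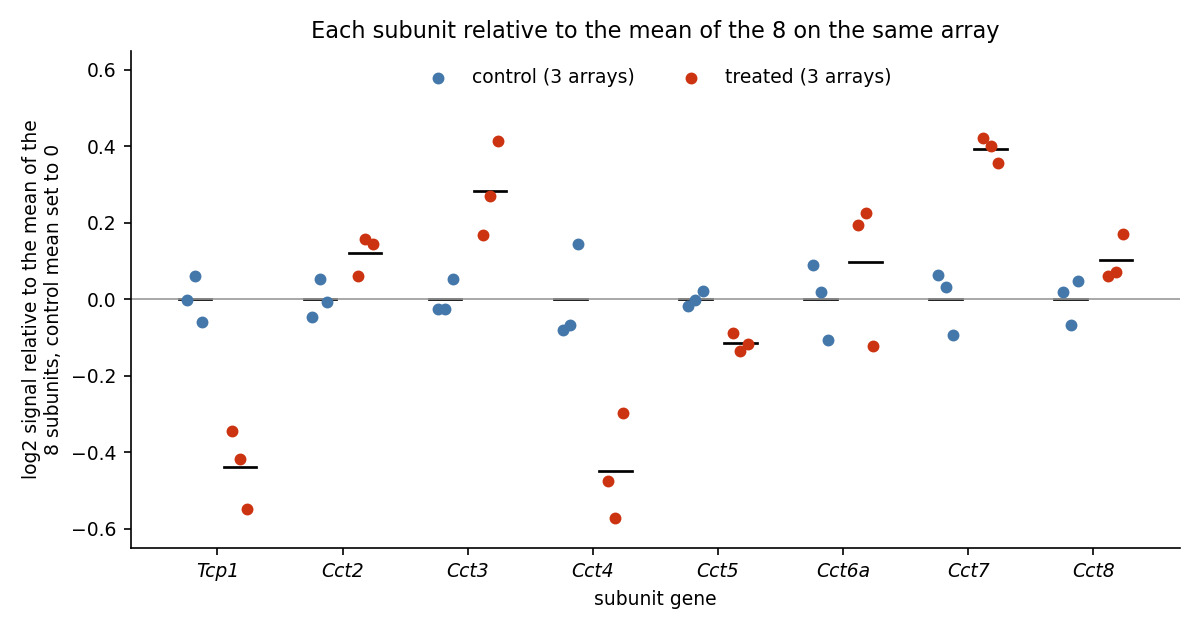
Log2 signal of each subunit relative to the mean of the 8 subunits on the same array, with the control mean of each gene set to 0. Points are arrays (3 control in blue, 3 treated in red) and bars are group means. Tcp1 and Cct4 drop by 0.44 and 0.45, while Cct7 and Cct3 gain 0.39 and 0.28.

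Correlations of log2 signals over the 6 arrays are given as a description of points that share the treatment and the array. The pairs were split by calls made on these same arrays. A higher r among called subunits therefore follows from the split and lends it no support. Among the 15 pairs of called subunits r ran from 0.80 to 0.99. In the 12 pairs of a called subunit with Tcp1 or Cct4 it ran from -0.30 to 0.39. With group means removed the division was not seen. The 15 pairs then spread from -0.82 to 0.85 (median 0.21) and the 12 pairs from -0.56 to 0.89 (median 0.56).

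By the same measure, the genes outside the family whose profile was most like the mean of the 8 subunits were Cox6b1, Sema7a, Vdac2, Atp5b, Rprm and Cox4i1. Their r over the 6 arrays lay between 0.997 and 0.999. Cox6b1, a subunit of cytochrome oxidase, had a log2 change of 0.43 and Vdac2, a channel of the outer mitochondrial membrane, one of 0.44. Atp5b, the beta subunit of ATP synthase, changed by 0.49 and Cox4i1, another cytochrome oxidase subunit, by 0.38. Sema7a changed by 1.11 and Rprm by 0.68, from control means of 179 and 51.6. Of 12186 genes 902 had an r of at least 0.95, so a high r was not rare on 6 arrays. How many genes reached 0.997 was not counted.

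Prefoldin hands unfolded clients to the chaperonin. Of 9 tested genes of prefoldin and its relatives, 5 rose and 2 fell, with a median log2 change of 0.28. Counts in this and the later lists stand beside the 19.5% of all genes called higher and the 21.6% called lower. Pfdn1, Pfdn2 and Pfdn4, beta-type subunits of the prefoldin hexamer, rose by 0.62 ± 0.097, 0.59 ± 0.11 and 0.60 ± 0.090 (SE). Vbp1, an alpha-type subunit also known as prefoldin subunit 3, rose by 0.28, a call lost in 8 of 15 alternatives (adjusted p = 0.0574 to 0.576), among them the omission of control array 1, control array 2, treated array 2 or treated array 3. Pfdn6 changed by 0.02 without a call.

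Pfdn5, the other alpha-type subunit, fell. It read 2200.3, 1918 and 2249 in controls and 1542, 1488 and 1650.4 in treated cultures, a log2 change of -0.44 ± 0.087 (SE; limma adjusted p = 0.00315). A second probe set of Pfdn5 fell by 0.84. Of the prefoldin-like proteins Pdrg1 rose by 1.06 ± 0.11, Uri1 fell by 0.36 and Uxt changed by -0.25 without a call. Without scaling 1 of the 9 rose and 0 fell, and with a common median 1 fell.

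The phosducin-like proteins bind CCT and tune its work. Pdcl3 rose from 1822 ± 144 (SD, n = 3) to 2697 ± 197, a log2 change of 0.56 (limma adjusted p = 0.000839), and was not called without scaling, where 0 of the 3 tested genes rose. Txndc9 changed by 0.17 at its brightest probe set (adjusted p = 0.0872) and rose by 0.58 and 0.83 at its other 2. The probe set with 0.83 was dim, with means of 41.1 on control and 81.8 on treated arrays. Treated arrays alone can carry so dim a probe set past the filter, so its rise was not taken as support. Pdcl, which helps CCT assemble G protein beta subunits, changed by 0.08 (adjusted p = 0.515).

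Of the related chaperonin of mitochondria, the ring subunit rose and the lid was not called. Hspd1, the ring subunit HSP60, read 3003, 2979 and 2909 in controls and 5171, 4824 and 4278 in treated cultures. This was a log2 change of 0.68 ± 0.084 (SE; limma adjusted p = 0.000195), within the range of the 6 risen CCT subunits. The lid, Hspe1, changed by 0.22 and 0.27 at its 2 probe sets (adjusted p = 0.073 and 0.0794). Cct6b, a testis-enriched copy of the zeta subunit, was too dim to test, at a mean of 19.6 ± 12.8 on control arrays (SD, n = 3) and 11.4 ± 7.27 on treated ones. The chaperonin-like genes Mkks (-0.03) and Bbs10 (-0.21) were not called, and Bbs12 was too dim to test.

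Of 22 tested genes of the HSP70 and HSP90 system, in which HSP70 can take up clients before CCT, 11 rose and 1 fell (median log2 change 0.31). Over all genes tested 19.5% were called higher and 21.6% lower. The rises were largest for the small heat shock protein Hspb1 (2.01 ± 0.087, SE), the HSP70 exchange factor Hspa4 (0.95 ± 0.087), the co-chaperone Bag2 (0.95 ± 0.089) and the HSP90 activator Ahsa1 (0.81 ± 0.092). The constitutive HSP70, Hspa8, rose by 0.39, but lost its call without control replicate 2, scaling or the intensity trend and with a common median (adjusted p = 0.051 to 0.183). Its other probe sets rose by 0.44, 0.37 and 0.90, calls that were not followed over the alternatives. The one with 0.90 was dim (control mean 44.5), and treated arrays alone can carry such a probe set past the filter. The stress-induced Hspa1b fell by 0.38 at its brightest probe set, and its other 2 probe sets were not called. Without scaling 6 rose and 0 fell.

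**Figure D4:**
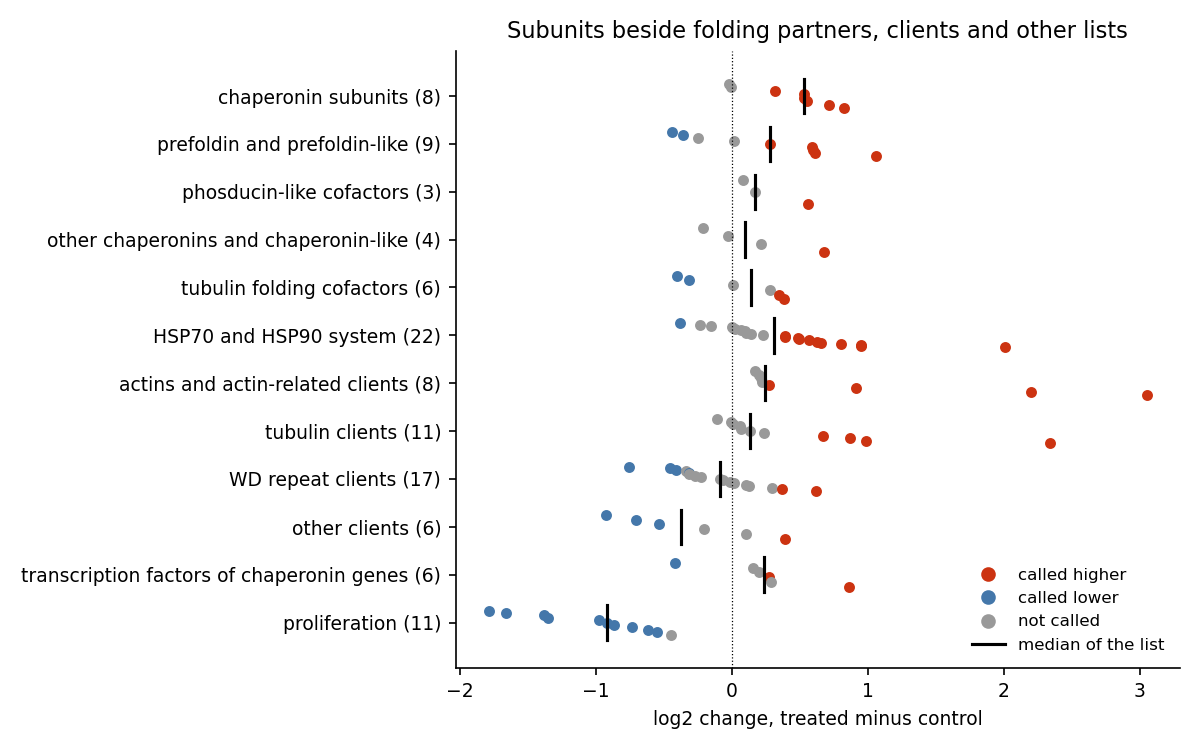
Log2 change (treated minus control) of each tested gene in the chaperonin and in 11 other lists, 1 point per gene at its representing probe set. Red is called higher, blue called lower, grey not called, and black bars are list medians. The subunit median is 0.53, and the proliferation list, at -0.91, lies on the other side of 0.

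Among the clients, counts are read against the 19.5% of all genes called higher and 21.6% called lower, and no difference between lists was tested. Of 8 tested actins and actin-related proteins 4 rose and 0 fell. Acta1, a skeletal muscle form, and Actg2, a smooth muscle form, rose by 3.05 ± 0.12 and 2.20 ± 0.098 (SE), and Actc1 by 0.92. Acta2, another smooth muscle form, changed by 0.17 with overlapping groups and no call (limma adjusted p = 0.182). The cytoplasmic Actg1 rose by 0.27 (limma adjusted p = 0.0279), a call that was lost in 10 of 15 alternatives (adjusted p = 0.0532 to 0.434), among them the replicate block and the omission of any single array except treated replicate 2. Acta1, Actg2 and Actc1 were called in all 15. Actb changed by 0.22 (adjusted p = 0.123).

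Of 11 tubulins 4 rose and 0 fell: Tuba4a (2.34 ± 0.094, SE), Tubb4b (0.99), Tubb6 (0.87) and Tubb3 (0.67). Tubb3 was not called without scaling (adjusted p = 0.0966). Tuba1a (0.07) and Tubb5 (0.06) were not called. Of the 6 tubulin folding cofactors, which receive tubulin after CCT, Tbca (0.39) and Tbcd (0.35) rose and Tbce (-0.40) and Tbcb (-0.32) fell. In that list 0 rose and 0 fell without scaling, 0 rose and 1 fell with a common median, and 3 rose with the replicate block. Tbcb lost its call, leaving 1 that fell, without control replicate 1, 2 or 3, treated replicate 3 or the intensity trend.

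Of 17 tested WD repeat clients 2 rose and 4 fell (median -0.09). Gnb1, a G protein beta subunit, rose by 0.62 ± 0.085 (SE) and the phosphatase subunit Ppp2r2a by 0.37. Cdc20, the mitotic activator of the anaphase-promoting complex, fell by 0.76 and Gnb4 fell by 0.41. Without scaling, and with a common median, 1 rose and 1 fell, and 2 fell after quantile normalization. The number that fell was 2 after leaving out control replicate 1, 2 or 3 or treated replicate 1 or 2, and 1 rose without treated replicate 1. Of 6 other clients Stat3 fell by 0.92, Plk1 by 0.70 and Vhl by 0.54, while Ccne1 rose by 0.39. Vhl lost its call without control replicate 1 (adjusted p = 0.0919) and without scaling (0.0522). The rise of Ccne1 was lost, leaving 0, without control replicate 1 or 3, treated replicate 1 or 2, or scaling, and with a common median.

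In a list of transcription factors drawn up for the CCT genes, 2 of 6 tested rose and 1 fell. Over all genes tested 19.5% were called higher and 21.6% lower. Whether these factors act on the CCT promoters in these cells was not tested. The upstream search had no match to CACGTG, an E-box, in the 9 windows. Myc rose from 306.9 ± 60.8 (SD, n = 3) to 561 ± 34.5, a log2 change of 0.86 (limma adjusted p = 0.000937). Elk3 rose by 0.28 and Elk4 fell by 0.42. Hsf2, a heat shock factor, changed by 0.15 without a call. Its probe set was dim (control mean 64.0), the 95% interval ran from -0.39 to 0.70, and its other probe set was not tested. Hsf1 and Zfp143 had no probe set listed under that name alone. In this list 1 gene rose without control replicate 2 or 3, treated replicate 1 or 3, scaling or the intensity trend. No gene fell without control replicate 1, treated replicate 2 or scaling, and with a common median 1 rose and 0 fell.

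Several other measures moved with the treatment beside the subunits, and their part in the result was not tested. Of 11 tested proliferation genes 10 fell and 0 rose, among them Ccnb2 (-1.79 ± 0.16, SE), Mki67 (-1.66), Nusap1 (-1.38) and Cenpa (-1.35). All 10 fibroblast markers were tested, 9 fell and 0 rose, and their summed signal ran from 53400 to 61614 on control arrays and from 24318 to 29482 on treated arrays. For keratinocyte, endothelial, leukocyte, melanocyte, skeletal muscle, glial and adipocyte markers the sums ran from 140.1 to 784.9 on any array. Leukocyte and skeletal muscle sums were higher on every treated array (638.2 to 784.9 against 510.8 to 562.9, and 341 to 428.4 against 281.5 to 328.3). Cd68 (1.08), of 3 tested leukocyte markers among 6, and Des (0.99), of 2 tested muscle markers among 5, rose. So did Cdh5 (0.83), while Tek fell by 0.78, of 4 tested endothelial markers among 5, and Pmel fell by 1.22, of 3 tested melanocyte markers among 4. All of these called markers were dim, with control means from 34.5 (Cdh5) to 106.1 (Pmel). A dim marker can pass the filter through 1 group alone, as 3 arrays above the median are enough. On treated arrays Cdh5 averaged 67.2 and Tek 44.7. These calls were therefore not taken as support for a change in cell types. The other tested leukocyte, muscle, endothelial and melanocyte markers were not called. No keratinocyte, glial or adipocyte marker tested was called. For Actb, the signal at the 3' end over that at the 5' end averaged 1.26 ± 0.010 on control arrays (SD, n = 3) and 1.16 ± 0.019 on treated ones. The Actb ratios of the groups did not overlap. The same ratio for Gapdh averaged 0.739 ± 0.016 and 0.764 ± 0.024, the other way but with overlapping groups. Scale factors ran from 0.863 to 1.29, with the highest on treated array 1, which also had the highest treated signal for 6 of the 8 subunits. Without that array the same 6 genes were called.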

How the data were processed

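The authors deposited 1 MAS5 signal intensity per probe set and array on a linear scale, per the submitters' processing notes. Neither its version nor detection calls were used. Arrays were scaled to their common 2% trimmed mean of 193.2 and transformed to log2(signal + 9.66). After removal of 64 control probe sets, those above the array median on at least 3 of 6 arrays were tested, 23388 of 45037. The test was limma 3.58.1 in R 4.3.3 (lmFit, then eBayes with trend), two-sided, with group as sole term, and the procedure was tested on simulated data. The number of arrays limits the precision. Genes came from the platform annotation, and 34741 of 34945 single-gene probe sets matched RefSeq by Entrez identifier. Members and lists were chosen with earlier results of these data known. Named were all subunits, up to 4 genes per list by smallest p, set genes (Hsf1, Hsf2, Actb, Actg1, Hspa8, Hspd1, Hspe1, Cct6b, Mki67), and the 6 genes most correlated with the subunit mean, passing over clone names. Other genes in the text were chosen after their values were seen. Alternatives covered scaling, pseudocount, filter, replicate block, trend, probe set choice and each array left out.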

Additional observations from a re-analysis of the deposited data

How the results depend on the processing

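The 6 rises and the absence of falls among subunit genes held under quantile normalization, both other pseudocounts, both other filters, without the intensity trend, with probe sets averaged per gene, and on leaving out any 1 array. Left unscaled, 3 genes and 7 probe sets were called higher, the subunit median was 0.45, and over all probe sets 1977 were higher and 3042 lower. The subunit median was 0.41 after quantile normalization and 0.47 to 0.54 on leaving out 1 array, lowest without treated replicate 1. Leaving out probe sets with shared probes, an alternative chosen after seeing the data, left 11 tested, of which 8 were higher and 0 lower by limma. With 1 array left out, 12 to 14 subunit probe sets were higher and 1 lower. With the replicate number as a block, 14 were higher and 1 lower, 6 genes were higher and 0 lower, and over all probe sets 4575 were higher and 4966 lower. Deviations from group means correlated at 0.19, 0.17 and 0.07 between same-numbered arrays and from -0.15 to -0.02 between others, so each array correlated best with its own number. This is a hint from the data that is not in the design. Without scaling, 3 actins and 3 tubulins rose, and 2 other clients and 9 proliferation genes fell. The losses of the other lists stand beside them.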

Other observations

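Several subunit genes start close to a gene on the opposite strand in the RefSeq table (GRCm38.p6), so that both are read outward from the stretch between their starts. The start of Psph, a phosphatase of serine synthesis, lies 103 bases from that of Cct6a, and the start of Tsacc 136 bases from that of Cct3. Pradc1 starts 203 bases from Cct7, B130034C11Rik 204 from Cct8, Mrpl18, a mitochondrial ribosomal protein, 238 from Tcp1, and Atpsckmt 270 from Cct5. None of the 5 tested partners was called by limma, against 19.5% of all genes called higher and 21.6% called lower. Psph read 829.3, 829.9 and 717.3 in controls and 791.7, 800.5 and 832.6 in treated cultures, with overlapping groups and a log2 change of 0.03 ± 0.088 (SE; adjusted p = 0.811). Tsacc changed by 0.09 (adjusted p = 0.783), Pradc1 by -0.30 (0.258), Atpsckmt by -0.11 (0.588) and Mrpl18 by 0.22 (0.138). B130034C11Rik was too dim to test. The difference between a subunit and its partner was not tested, and the partners of Cct3, Cct5 and Cct7 were dim, with control means from 58.9 to 142.4.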
